A study of Homo sapiens with 10 samples.

Results

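FRMD4A, CPE and ZDHHC15 are 3 genes of the 59453 counted in RNA-sequencing libraries of HAP1 cells, and all 3 were among the 17881 genes that passed the filter on low counts. They were chosen by their scaled read counts (CPM, a gene's counts per 1000000 counts of the library), as genes low in cells without OGG1, by comparing OGG1-/ and DKO libraries with the WT, MUTYH-/ and H2O2 libraries. The levels that chose them are therefore given as a description with no test. That description holds for FRMD4A in all 4 libraries without OGG1. It goes against the data for CPE and ZDHHC15, which were low in both OGG1-/ clones but several times higher in both DKO clones. Of these, DKO clone 14 held 61.3% of the WT mean of CPE and 76.3% of that of ZDHHC15, and DKO clone 4 held 96.2% and 121%.

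HAP1 is a near-haploid human line that grows attached and derives from a chronic myeloid leukaemia line. The 10 libraries came from 5 groups with 2 clones each: untreated WT (clones 2 and 11), MUTYH-/ (clones 7 and 8), OGG1-/ (clones 1 and 22), cells lacking both glycosylases (DKO, clones 4 and 14), and the same WT clones given 100 µM H2O2 for 24 h. Both DKO clones were made from the OGG1-/ clone 22, so 3 of the 4 libraries without OGG1 go back to a shared OGG1 edit and OGG1-/ clone 1 is the only separate one. Each group's spread is that between 2 clones, and clone-to-clone variation and genotype cannot be told apart beyond that. Total counts per library lay between 22225091 and 22674964, so that 1 CPM rested on 22.2 counts in the smallest library. OGG1 itself, the knocked-out gene, is also the check of the labels, and its read counts were 295 and 275 in WT, 331 and 289 in H2O2, 311 and 313 in MUTYH-/, 27 in OGG1-/ clone 1, 254 in OGG1-/ clone 22, and 215 and 223 in DKO. Its RNA was strongly reduced in OGG1-/ clone 1 alone. The other 3 edited libraries lay below the 6 with OGG1, and the DKO mean was 77.0% of that of WT. Other protein-coding genes overlap OGG1 on the opposite strand, and the strand setting of the counting is not stated. Reads of that overlap cannot be assigned with certainty. A gene count also cannot show whether the remaining transcripts of the other edited clones were intact. The paper reports that targeted mass spectrometry verified the knockouts at the protein level in each clone.

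OGG1 removes 8-oxoguanine, an oxidised guanine, when it is paired with cytosine, and MUTYH removes adenine that was placed opposite that lesion. The 3 genes have unrelated functions. FRMD4A is a FERM domain scaffold that links the polarity protein PAR3 with cytohesins, which activate the small GTPase ARF6 at cell junctions. CPE (carboxypeptidase E) trims basic residues from the ends of prohormone intermediates in secretory granules after proprotein convertases have cut them. ZDHHC15 is an enzyme of the DHHC family that attaches palmitate to cysteines of membrane proteins in the Golgi.

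In the annotation of GRCh38 (GENCODE v44), FRMD4A lies on the minus strand of chromosome 10 (13643706 to 14462142), CPE on the plus strand of chromosome 4 (165361194 to 165498547) and ZDHHC15 on the minus strand of chromosome X (75368427 to 75523502). Each is protein-coding. The sequences just upstream of their RefSeq start sites (GRCh38.p14) are shown because the lesion that OGG1 repairs forms at guanines, and because CPE and ZDHHC15 shared a pattern across the libraries that FRMD4A did not have. Each run holds the 250 bases before the start, 5′ to 3′ on the strand of the gene, with CG dinucleotides in capitals. They lie at chr10:14008551-14008800 (minus strand, FRMD4A, the first of 2 listed starts), chr4:165378758-165379007 (plus strand, CPE) and chrX:75523038-75523287 (minus strand, ZDHHC15).

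FRMD4A: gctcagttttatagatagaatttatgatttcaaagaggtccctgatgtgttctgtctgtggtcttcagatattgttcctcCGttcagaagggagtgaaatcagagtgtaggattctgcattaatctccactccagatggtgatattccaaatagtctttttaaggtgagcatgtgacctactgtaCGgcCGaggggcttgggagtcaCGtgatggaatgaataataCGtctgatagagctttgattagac
CPE: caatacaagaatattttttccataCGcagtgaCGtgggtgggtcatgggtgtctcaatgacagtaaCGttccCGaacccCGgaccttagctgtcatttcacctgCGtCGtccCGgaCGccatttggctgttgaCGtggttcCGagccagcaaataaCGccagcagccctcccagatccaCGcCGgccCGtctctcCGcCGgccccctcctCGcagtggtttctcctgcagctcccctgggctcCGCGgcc
ZDHHC15: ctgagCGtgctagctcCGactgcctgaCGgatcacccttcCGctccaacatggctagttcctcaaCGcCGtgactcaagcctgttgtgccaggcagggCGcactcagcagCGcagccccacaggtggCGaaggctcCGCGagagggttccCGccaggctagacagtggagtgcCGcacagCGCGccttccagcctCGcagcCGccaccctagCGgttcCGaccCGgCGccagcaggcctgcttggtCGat

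The CPE and ZDHHC15 sequences held 20 and 22 CG dinucleotides, above the median of 11 over the 35116 RefSeq promoters of this length. Of those promoters, 67.6% held fewer than CPE and 72% held fewer than ZDHHC15. The FRMD4A sequence held 5, with 34.3% of promoters below it, and its other listed start (chr10:13971897-13972146) held 1. GC content was 42% and 48.4% at the FRMD4A starts, 60.4% at CPE and 67.2% at ZDHHC15, against a median of 58%. None of the 4 windows matched a G-quadruplex motif, searched on both strands as 4 runs of at least 3 G separated by 1 to 7 bases of any kind, which 23.5% of all promoters matched. None held TATAAA on the gene's strand, which 6.8% of all promoters held. All 4 windows lay inside the annotated genes, downstream of their 5′ ends at 14462142 (FRMD4A), 165361194 (CPE) and 75523502 (ZDHHC15). Sequence before those 5′ ends was not examined, so the values hold for the listed starts alone. The counts are per gene and do not show which start was used. Whether CG dinucleotides or oxidised guanine at these starts relate to the levels of the genes was not tested. The paper reports that expression changes after loss of OGG1 and MUTYH were not associated with where oxidised guanine lay in the genome.

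FRMD4A was low in every library without OGG1 and in no other. Its levels were 6.60 CPM in WT clone 11 and 6.39 in WT clone 2, 1.27 in OGG1-/ clone 1 and 1.02 in OGG1-/ clone 22, and 1.03 in DKO clone 4 and 1.15 in DKO clone 14. In MUTYH-/ clones 7 and 8 it stood at 8.87 and 13.03 CPM, and in H2O2-treated clones 11 and 2 at 4.49 and 8.05 CPM. The 4 low libraries rested on 23 to 28 counts each and the lowest of the other 6 on 102, so the groups did not overlap. As means, OGG1-/ held 1.14 ± 0.172 CPM (SD, n = 2) and DKO 1.09 ± 0.0825 (SD, n = 2), or 17.6% and 16.8% of the WT mean of 6.49 ± 0.152 (SD, n = 2). The fitted log2 fold change was -2.50 ± 0.31 (SE) in OGG1-/ and -2.57 ± 0.31 in DKO, both against WT. DKO differed from OGG1-/ by -0.07 ± 0.31 on the log2 scale, less than its SE. OGG1-/ clone 1, the separate edit, and the 3 libraries of the clone 22 lineage were within 1.02 to 1.27 CPM.

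Per exon length, CPE had the highest mean level of the 3 genes in each group, and its clones of a group differed by 1.54 to 2.45 times. It stood at 26.0 and 40.1 CPM in WT clones 11 and 2, at 6.91 and 4.17 in OGG1-/ clones 1 and 22, and at 31.8 and 20.2 in DKO clones 4 and 14. The OGG1-/ libraries lay below all 8 others, and the DKO libraries were 7.62 and 4.85 times as high as the OGG1-/ clone 22 they were made from. DKO clone 4 lay within the range of the WT clones and DKO clone 14 below it. The log2 fold change against WT was -2.57 ± 0.47 in OGG1-/ and -0.34 ± 0.43 in DKO. The DKO value moved to -0.71 without DKO clone 4 and to -0.0025 without WT clone 2. Group means were 33.0 ± 9.93 CPM in WT, 5.54 ± 1.94 in OGG1-/ and 26.0 ± 8.17 in DKO (SD, n = 2 each).

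ZDHHC15 behaved like CPE, at a lower level. Its levels were 5.05 and 6.39 CPM in WT clones 11 and 2, and only 1.63 and 1.15 in OGG1-/ clones 1 and 22. DKO clone 4 reached 6.94 CPM and DKO clone 14 reached 4.37 CPM. The OGG1-/ libraries, with 36 and 26 counts, held 37.3% and 26.4% of the lowest of the 8 other libraries. The DKO clones lay on either side of the WT clones and were 6.01 and 3.78 times as high as OGG1-/ clone 22. The log2 fold change against WT was -2.03 ± 0.36 in OGG1-/ and -0.01 ± 0.34 in DKO, and the latter ranged from -0.40 without DKO clone 4 to 0.27 without DKO clone 14. Averaged over both genotypes without OGG1, FRMD4A was lower by -2.91 ± 0.22 on the log2 scale than in untreated cells with OGG1, against -0.93 ± 0.31 for CPE and -0.98 ± 0.25 for ZDHHC15, averages that for the last 2 join a low genotype and one several times higher.

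**Figure D1:**
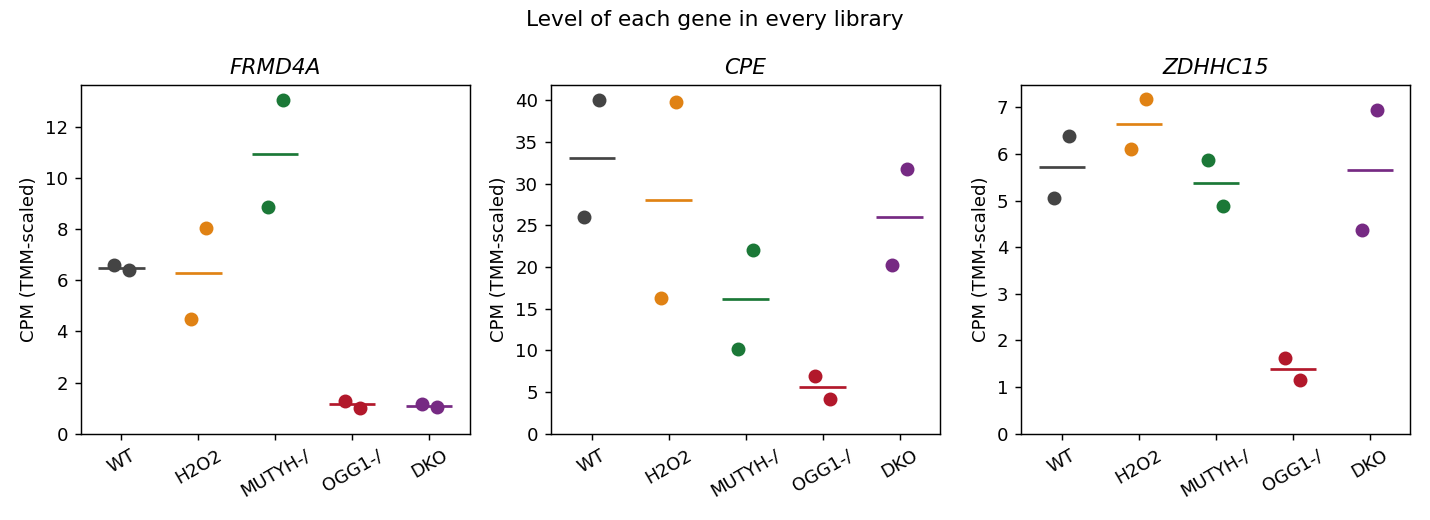
Level of FRMD4A, CPE and ZDHHC15 in CPM, scaled by trimmed mean of M values (TMM), on a linear axis from 0, where each point is a library, each bar the mean of the 2 clones and the groups are WT, H2O2, MUTYH-/, OGG1-/ and DKO. FRMD4A sits at 1.02 to 1.27 CPM in OGG1-/ and DKO, whereas CPE and ZDHHC15 are low in OGG1-/ and not in DKO.

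A gene was called differentially expressed (DEG) when its unadjusted P in edgeR's quasi-likelihood F test was no higher than 0.05 and its log2 fold change passed 1 in either direction. These thresholds were taken over from the published methods. By these marks 0.861% of the 17881 tested genes were lower in OGG1-/ than in WT and 0.531% in DKO, and 0.52% were lower in the joint comparison of both genotypes without OGG1. All 3 genes met them in OGG1-/ and only FRMD4A in DKO and in the joint comparison, but these libraries chose the genes. Of DKO against OGG1-/, 1.06% of genes were higher, CPE (log2 fold change 2.23 ± 0.46) and ZDHHC15 (2.02 ± 0.36) among them, and 0.386% were lower. This comparison also rests on the OGG1-/ libraries that chose the genes.

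The WT, MUTYH-/ and H2O2 libraries were the comparison group when the genes were chosen, so the differences among them are also given as a description, with no test. CPE stood at 10.2 and 22.03 CPM in MUTYH-/ clones 7 and 8, both below the WT clones. Its log2 fold change of -1.04 ± 0.44 lay at the edge of the DEG criterion, which 0.777% of all genes met in the lower direction. The criterion was met in the fit of the 8 untreated libraries and missed in that of the WT and MUTYH-/ libraries alone. The log2 fold change was within 1 without MUTYH-/ clone 7 (-0.60) or WT clone 2 (-0.70) and reached -1.69 without MUTYH-/ clone 8. FRMD4A was higher than WT in both MUTYH-/ clones, by a log2 fold change of 0.75 ± 0.28, short of the fold threshold that the 0.408% of genes called higher had passed. This value became 0.45 without MUTYH-/ clone 8 and 0.99 without MUTYH-/ clone 7. ZDHHC15 stood at 5.86 and 4.88 CPM in MUTYH-/ clones 7 and 8, overlapping WT (log2 fold change -0.09 ± 0.34, or -0.25 when WT clone 11 and 0.08 when WT clone 2 was left out).

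After H2O2, none of the 3 genes met the DEG criterion, which 1.01% of 16997 genes met as lower and 0.741% as higher. With the clone as a block 473 genes met it in place of 298, the 3 genes again not among them. FRMD4A was 0.680 times its untreated level in clone 11 and 1.26 times in clone 2. CPE was 0.626 times its untreated level in clone 11, at 16.3 CPM, and 0.994 times in clone 2, at 39.8 CPM. ZDHHC15 was higher in both clones, by 1.21 and 1.12 times, at 6.12 and 7.18 CPM. The log2 fold changes were -0.06 ± 0.34, -0.24 ± 0.44 and 0.21 ± 0.26 for FRMD4A, CPE and ZDHHC15, each within its SE of 0. The first 2 depended on the clone: without treated clone 2 they were -0.55 and -1.04, and without treated clone 11 they were 0.31 and 0.27, whereas ZDHHC15 ranged from 0.05 without untreated clone 11 to 0.38 without untreated clone 2.

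**Figure D2:**
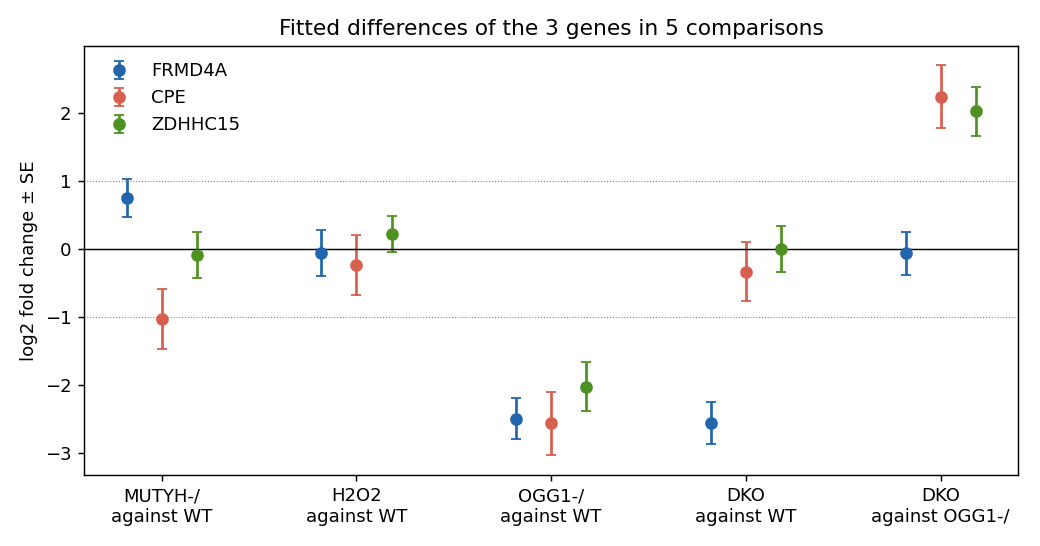
Fitted log2 fold change (vertical axis, points) with its SE (bars) of the 3 genes in 5 comparisons, with dotted lines at the fold threshold of 1 in either direction. FRMD4A is near -2.5 in both OGG1-/ and DKO, CPE and ZDHHC15 return towards 0 in DKO, and the values after H2O2 lie within 1 SE of 0.

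Ordered by mean level, FRMD4A ran from MUTYH-/ (10.9 ± 2.95 CPM) over WT (6.49 ± 0.152) and H2O2 (6.27 ± 2.51) to OGG1-/ and DKO. WT and H2O2, and OGG1-/ and DKO, overlapped in their clones. CPE ran from WT over H2O2 (28.1 ± 16.6), DKO and MUTYH-/ (16.1 ± 8.36) to OGG1-/, and of these neighbours only MUTYH-/ and OGG1-/ did not overlap. ZDHHC15 ran from H2O2 (6.65 ± 0.753) over WT (5.72 ± 0.945), DKO (5.65 ± 1.82) and MUTYH-/ (5.37 ± 0.698) to OGG1-/ (1.39 ± 0.334), and again only the last step did not overlap (SD, n = 2 in each group). Per length of their joined exons, CPE was the highest in WT at 10.6 ± 3.18 RPKM, which is CPM per kilobase, ahead of ZDHHC15 at 0.839 ± 0.139 and FRMD4A at 0.441 ± 0.0103.

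By identity of the proteins translated from canonical transcripts, the closest relative of FRMD4A was FRMD4B (49.1% of the shorter protein), that of CPE was CPN1 (47.6%) and that of ZDHHC15 was ZDHHC2 (58.2%). FRMD4B, another FERM scaffold, was counted 52 and 185 times in the WT clones 11 and 2, 21 and 13 times in the OGG1-/ clones 1 and 22, 132 and 33 times in the DKO clones 4 and 14, and 40 and 199 times in the MUTYH-/ clones 7 and 8. Both OGG1-/ libraries lay below all others, and the WT clones differed more than 3 times between themselves. FRMD4B met the DEG criterion in OGG1-/ against WT (log2 fold change -2.77 ± 1.03, adjusted p in edgeR 0.999) and in the joint comparison (-1.64 ± 0.69), with -0.50 ± 0.93 in DKO. Of the 5 FRMD genes tested besides FRMD4A, FRMD6, a regulator of the Hippo pathway, was the only other DEG in OGG1-/ (-1.10 ± 0.37, adjusted p in edgeR 0.999), at 113 and 123 counts against 182 and 330 in WT. These 2 of 5 genes stood against 0.861% of all genes called lower in OGG1-/. None of the 5 was a DEG in DKO. Among 18 tested cytohesin, ARF6 and polarity genes, the partners of FRMD4A, none was a DEG in OGG1-/, DKO or the joint comparison. That count is near the all-gene shares (0.861% lower and 0.811% higher in OGG1-/, 0.531% and 1.24% in DKO, 0.52% and 1.05% in the joint comparison). Their median log2 fold change in OGG1-/ was 0.07, against 0.01 over all genes.

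ZDHHC2 had 922 to 1343 counts in the 10 libraries, with a log2 fold change of 0.06 ± 0.19 in OGG1-/ and -0.09 ± 0.19 in DKO. Of 22 tested DHHC enzymes other than ZDHHC15, none was a DEG in OGG1-/ or in DKO against WT, which is near the shares over all genes (0.861% lower and 0.811% higher in OGG1-/, 0.531% and 1.24% in DKO). Their fold changes in OGG1-/ ranged from -0.26 to 0.65 on the log2 scale, around a median of 0.02. ZDHHC22, at a mean of 0.731 CPM over the 10 libraries, was the only one called in the joint comparison (higher) and in MUTYH-/ (lower). Over all genes, 1.05% were called higher in the former and 0.777% lower in the latter. None of 11 palmitoylation cofactors and thioesterases and none of 6 known ZDHHC15 substrates was a DEG in OGG1-/ or DKO. Both counts are near the shares over all genes given above. The log2 fold changes of the substrates ranged from -0.11 to 1.52 in OGG1-/ and from -0.16 to 1.35 in DKO.

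CPN1 was at 0 counts in every library. Of 4 tested members of the carboxypeptidase family of CPE, none was a DEG in OGG1-/ or DKO against WT. Their log2 fold changes were not all small, ranging from 0.12 to 2.99 in OGG1-/ and from -4.54 to 0.89 in DKO. A count of 0 among 4 is near the shares over all genes (0.861% lower and 0.811% higher in OGG1-/, 0.531% and 1.24% in DKO). AEBP1 was called lower in DKO than in OGG1-/, as were 0.386% of all genes. Its level rested on a single library, OGG1-/ clone 1, with 952 counts against 116 or fewer elsewhere. CPM, which here is carboxypeptidase M, was called higher in MUTYH-/, as were 0.408% of all genes. CPD, the Golgi carboxypeptidase that shares the activity of CPE, had log2 fold changes of 0.12 ± 0.42 in OGG1-/ and 0.10 ± 0.42 in DKO. The neuroendocrine convertases that act before CPE, PCSK1 and PCSK2, had at most 2 counts in any library. Of 7 tested convertases, PCSK5 was lower, with 57 and 54 counts in the OGG1-/ pair (clones 1 and 22) and 43 and 84 in the DKO pair (clones 4 and 14), against 160 and 91 in WT clones 11 and 2. It was a DEG in OGG1-/ (-1.16 ± 0.40, adjusted p in edgeR 0.999) and in the joint comparison (-1.35 ± 0.28, adjusted p in edgeR 0.974), and stood at -0.98 ± 0.40 in DKO. Over all genes, 0.861% were called lower in OGG1-/ and 0.52% in the joint comparison. PCSK5 was among the genes with all 4 libraries without OGG1 below the 6 others.

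Among 6 tested prohormone and granule genes, CADPS, which primes granules for release, was higher in OGG1-/ (1.87 ± 0.48), where 0.811% of all genes were called higher. CADPS (1.81 ± 0.48) and VGF, a granule protein precursor (2.17 ± 0.69), were higher in DKO, where 1.24% were called higher, and both were higher in the joint comparison, where 1.05% were. VGF was counted 86 and 26 times in the WT clones 11 and 2, 106 and 72 times in OGG1-/, and 377 and 122 times in the DKO clones 4 and 14. None of these list members passed adjustment over all genes. After H2O2, 7 genes of this list were tested. VGF (3.10 ± 0.86) and SCG2, another granule protein precursor (3.19 ± 0.92), were called higher, with adjusted p in edgeR of 0.638 for both. Over all genes, 0.741% were called higher after H2O2.

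**Figure D3:**
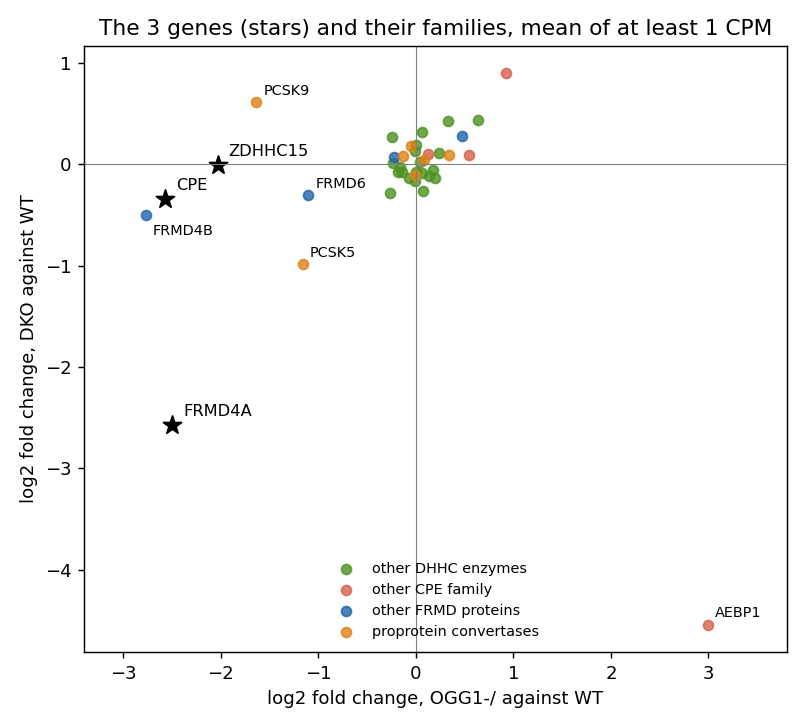
Log2 fold change in OGG1-/ (horizontal) and in DKO (vertical), both against WT, of FRMD4A, CPE and ZDHHC15 (stars) and of tested genes of their families with a mean of at least 1 CPM (dots, coloured by family). FRMD4A lies at -2.50 and -2.57, CPE, ZDHHC15 and FRMD4B lie far left but near 0 on the vertical axis, and the DHHC enzymes lie around 0 on both.

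The cell type markers were read beside these results. Of 9 leukocyte markers, 5 had at most 10 counts in every library and 2 of them were at 0 throughout, and the summed level was 3.16 to 10.1 CPM without OGG1 and 8.18 to 19.1 CPM in the others. Only 3 of the 9 were tested. KIT, a receptor of blood precursors, alone stood at 1.99 to 8.33 CPM without OGG1 and 7.41 to 18.5 CPM in the others. KIT was lower in OGG1-/ (log2 fold change -2.05 ± 0.52). CD34, a marker of blood precursors with at most 23 counts, was higher in OGG1-/ and DKO. Of the 4 epithelial markers, CDH1 had at most 2 counts, and the summed level was 71.3 to 101 CPM without OGG1 against 36.3 to 73.4 CPM in the others. KRT8, a keratin, rose by the DEG criterion in OGG1-/ (1.67 ± 0.55) and DKO (1.74 ± 0.56), and EPCAM, an adhesion protein, in DKO (2.22 ± 0.57). The mesenchymal-like markers VIM, FN1 and CDH2 summed to 501 to 686 CPM without OGG1 and 346 to 745 CPM in the others, and none was a DEG in OGG1-/ or DKO. None of the 7 tested neuronal and neuroendocrine markers was a DEG either. Their log2 fold changes ranged from -1.54 to 0.26 in OGG1-/ and from -0.93 to 1.35 in DKO. Over all genes, 0.861% were called lower and 0.811% higher in OGG1-/, and 0.531% and 1.24% in DKO. Counts of 0 in lists of this size are near those shares. The part of these shifts in the levels of the 3 genes was not tested.

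Genes around the 3 loci were read beside them, taken in order of start position, and some lay far away. The 5 tested genes after CPE lay 1235 to 3365 kb from it, and MAGT1 lay 2302 kb from ZDHHC15. Of the 5 nearest tested genes on each side of each gene, 30 in all, none was a DEG in OGG1-/, DKO or the joint comparison (edgeR), where 0.861%, 0.531% and 0.52% of all genes were called lower and 0.811%, 1.24% and 1.05% higher. A count of 0 among 30 is near those shares. With the unadjusted P alone, at 0.05, the count was 0 in OGG1-/ and 1 in DKO, MSMO1 upstream of CPE (-0.51). The 27 of them with a mean of at least 1 CPM had log2 fold changes from -0.73 to 0.35 in OGG1-/ and from -0.70 to 0.72 in DKO. SPOCK3, a proteoglycan gene 1235 kb from CPE, was at -2.003 in OGG1-/ and 1.09 in DKO, but at a mean of 0.453 CPM and an unadjusted P of 0.259 and 0.414. Next to FRMD4A, BEND7 was at -0.15 and -0.02 and FAM107B at -0.24 and -0.03 in OGG1-/ and DKO. PRPF18, a splicing factor gene, overlaps the end of FRMD4A on the opposite strand, and stood at 0.35 in OGG1-/ and 0.05 in DKO. Since the strand setting of the counting is not stated in the sources used here, reads of this overlap cannot be assigned with certainty. The remaining overlapping genes that the table lists had at most 95 counts in any library, the highest under the name Metazoa_SRP, which many copies share.

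**Figure D4:**
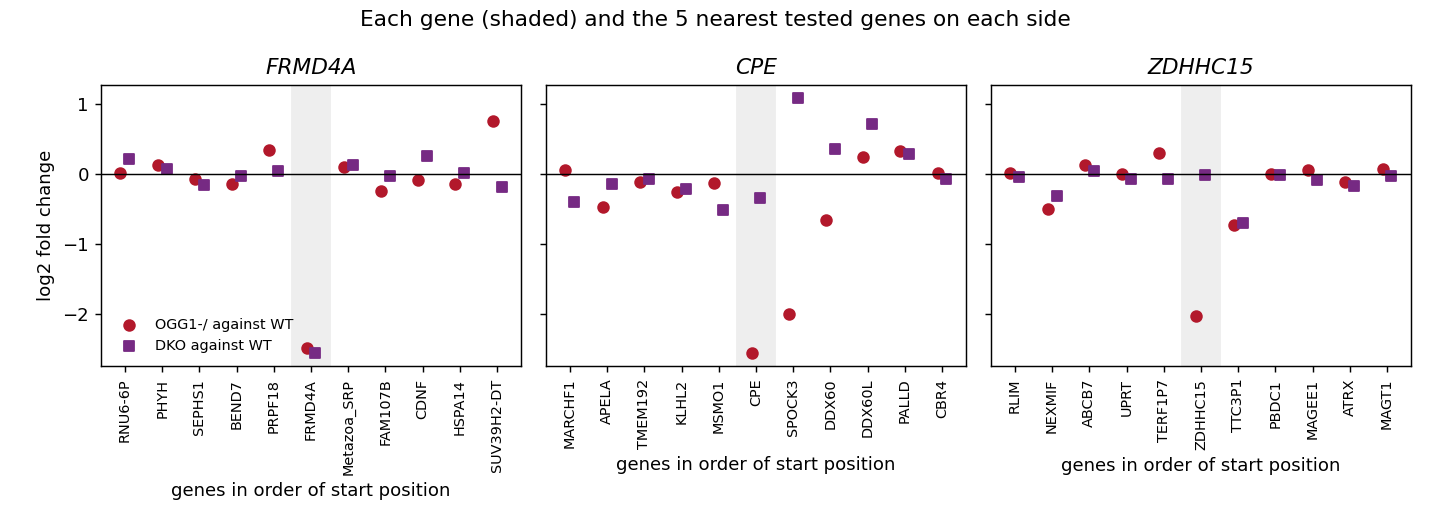
Log2 fold change against WT in OGG1-/ (circles) and DKO (squares) of FRMD4A, CPE and ZDHHC15 (shaded) and of the 5 nearest tested genes on each side, placed in order of start position and not to distance. Apart from SPOCK3, whose mean was 0.453 CPM, no neighbour falls below -1.

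The pattern of FRMD4A was uncommon. Levels in all 4 libraries without OGG1 below all 6 others, together with a joint log2 fold change below -1, occurred in 17 genes (0.0951% of those tested), and the mirror image in 61 (0.341%). FRMD4A had the second widest gap of the 12 genes of the first kind with a mean of at least 1 CPM, 1.76 on the log2 scale. MGMT, which reverses alkylation of guanine, had the widest at 1.98, with 0.0441 to 0.768 CPM against 3.28 to 13.7 CPM. MAF, SLIT3, PTPRN2, MS4A2, TRO, AL645608.2 and PCSK5 followed. In the opposite direction POSTN, a matrix protein, led with a gap of 1.12, followed by EYA1, HOXD10, FAM133A, SOSTDC1, CDH3, AL035530.2, SERPING1, AGAP2 and COL9A1. The count of 17 became 73, 30, 46 and 33 without OGG1-/ clone 1, OGG1-/ clone 22, DKO clone 4 and DKO clone 14 in turn, and that of 61 became 144, 91, 93 and 105, as leaving out a library loosens the condition.

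CPE and ZDHHC15 fell under another pattern, which was counted after their levels had been seen. Both OGG1-/ libraries lay below all 8 others, with a log2 fold change below -1 against WT, in 59 genes (0.33%), and above them with one over 1 in 54 (0.302%). Of the 44 genes of the first kind with a mean of at least 1 CPM, ZDHHC15 had the second widest gap (1.38 on the log2 scale), after CHL1, a neural adhesion molecule (1.84). FRMD4B stood 12th and CPE 14th. The count of 59 became 647 without OGG1-/ clone 1, 275 without OGG1-/ clone 22, 84 without DKO clone 4 and 96 without DKO clone 14, and that of 54 became 490, 333, 102 and 99.

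**Figure D5:**
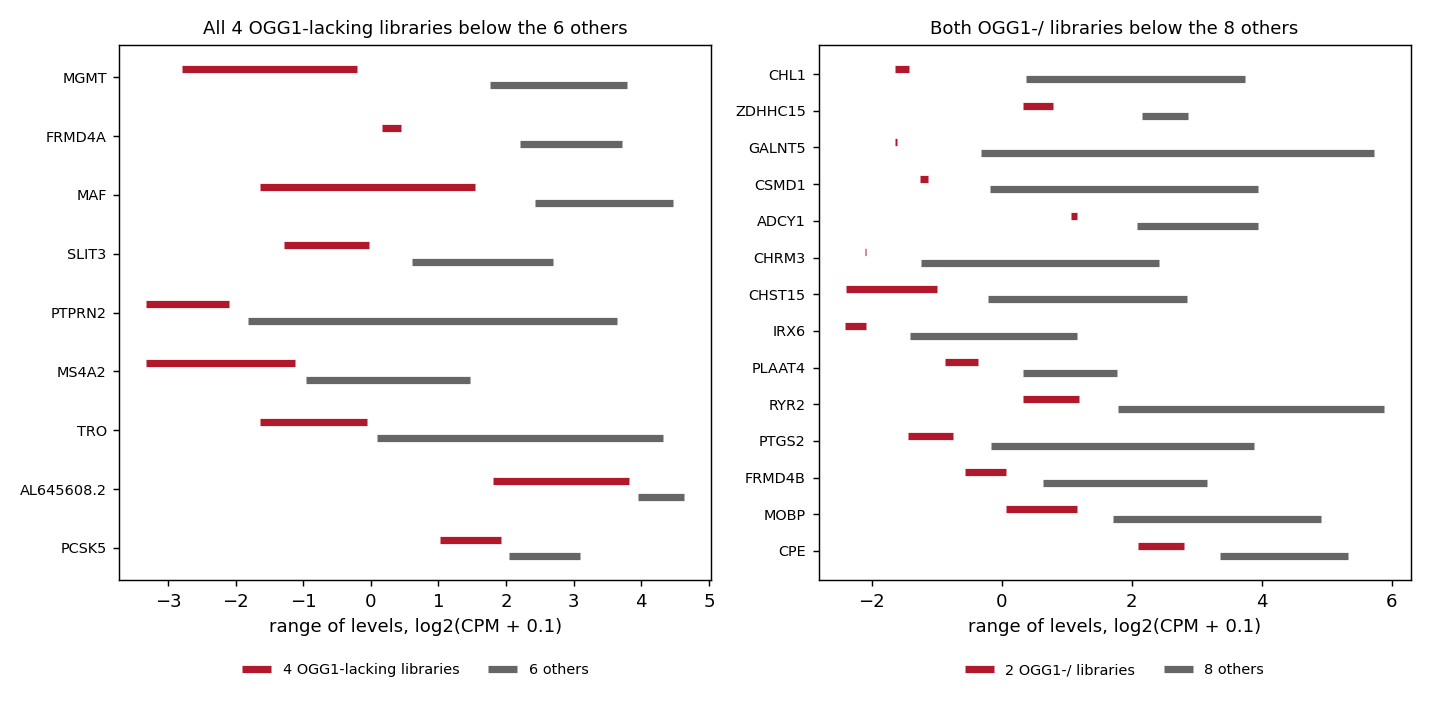
Range of levels, as log2 of CPM plus 0.1, in the low libraries (red) and the others (grey) for the 9 genes with the widest gap among those low in all 4 libraries without OGG1 (left) and the 14 among those low in both OGG1-/ libraries (right). FRMD4A is second on the left, ZDHHC15 second and CPE last on the right.

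Across the 10 libraries the log2 CPM of CPE and ZDHHC15 had a Pearson r of 0.865, against 0.434 for FRMD4A with CPE and 0.569 for FRMD4A with ZDHHC15. These are descriptions over libraries that share clones and lineages. Of 14769 genes with a mean of at least 1 CPM, those most like FRMD4A were KIF14 (0.931), ZNF658, MGMT (0.923), RRM1 and FAIM. KIF14, a mitotic kinesin, differed little in size, with 72.6 to 78.8 CPM without OGG1 and 81.7 to 88.8 in the others. RRM1, a subunit of ribonucleotide reductase, likewise had 224 to 242 CPM against 251 to 273. Those most like CPE were SLC26A7 (0.945), FOXD4, CSMD1, IRX6 and MVB12B, and those most like ZDHHC15 were GAS2 (0.925), AL450326.1, AC005831.1, SIK1B and TEX10.

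Within a genotype, the untreated libraries were split into 2 sets by the sign of their difference's correlation with the WT difference in these data. The sets were WT 2, MUTYH-/ 8, OGG1-/ 22 and DKO 14 against WT 11, MUTYH-/ 7, OGG1-/ 1 and DKO 4. Their differences correlated across 15068 genes with r from 0.363 to 0.605, but a positive r with WT was fixed by the split. FRMD4A was as low in OGG1-/ and DKO within each set: 1.02 and 1.15 CPM against 6.39 in WT of the first set, and 1.27 and 1.03 against 6.60 in the second. ZDHHC15 in OGG1-/ and DKO stood at 1.15 and 4.37 against 6.39 CPM in WT of the first set, and at 1.63 and 6.94 against 5.05 CPM in the second. CPE stood at 4.17 and 20.2 against 40.1 CPM in the first set, and at 6.91 and 31.8 against 26.0 CPM in the second. In both sets OGG1-/ was the lowest genotype for CPE and ZDHHC15.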

How the data were processed

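Total RNA of 2 clones per group was sequenced. The authors aligned reads to GRCh38 with Hisat2 2.2.1 and assigned them to Ensembl genes by featureCounts (Rsubread), with no strand setting stated. The deposited values are raw read counts per gene. The untreated WT columns stood in both tables and were used once. Tests used edgeR 4.0.16 under R 4.3.3 (TMM, filterByExpr by group, quasi-likelihood F test with legacy=TRUE, two-sided, Benjamini-Hochberg adjustment), with the 8 untreated libraries in 1 fit (17881 genes, 4 residual degrees of freedom) and the 4 WT libraries in another (16997 genes, 2 degrees). P-values measure only the spread between clones. CPM are TMM-scaled and given as mean ± SD, and log2 CPM used a prior count of 2. Counting error is 21.2% of the value at 1 CPM, and no library pair agreed within such error (smallest chi-square per degree of freedom 11.2). Treated and untreated WT libraries come from the same clones, and their clone deviations correlated (r = 0.681), so clone was a block in an alternative fit.

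The members, lists and rules were chosen with earlier results of these data known. Named were the 3 genes, OGG1, list genes that were DEGs with OGG1 loss at a mean of at least 1 CPM, closest relatives, 5 tested neighbours on each side, the 5 most correlated genes, the 10 with the widest gap in each direction, and genes of counts up to 5. A gene that this rule names is not reported here. Genes named beside the OGG1-/ pattern, KIT, CD34, CPD, SPOCK3 and MSMO1 were named after their values were seen. Alternatives were DESeq2 1.42.0, its size factors, edgeR 4's own quasi-likelihood test, other filters, the library set as a block, fits of 2 groups and leaving out each library. The fit was tested on simulated data.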

Additional observations from a re-analysis of the deposited data

Results flagged for a closer look

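CPE levels in libraries without MUTYH lay on opposite sides of those with MUTYH, depending on OGG1. With OGG1 present, both MUTYH-/ libraries (10.2 and 22.03 CPM) lay below both WT libraries (26.0 and 40.1 CPM). Without OGG1, both DKO libraries (31.8 and 20.2 CPM) lay above both OGG1-/ libraries (6.91 and 4.17 CPM). The fitted difference between these 2 changes was 3.27 ± 0.64 on the log2 scale. It was not tested, because the OGG1-/ libraries had served to choose the gene. By the DEG criterion, 358 of 17881 genes were called for a difference between the 2 changes, 252 higher and 106 lower. That count does not require the 2 changes to run in opposite directions. CPE and ZDHHC15 (2.12 ± 0.49) were among the 358, both chosen with the OGG1-/ libraries. As both DKO clones were made from OGG1-/ clone 22, clone-to-clone variation and MUTYH loss cannot be told apart here.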

How the results depend on the processing

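The log2 fold changes of the 3 genes in OGG1-/ and DKO against WT kept within 1 SD between clones under every alternative that kept all libraries. Leaving out each library in turn gave -2.67 to -2.35 (OGG1-/) and -2.65 to -2.51 (DKO) for FRMD4A, -2.99 to -2.23 and -0.71 to -0.0025 for CPE, and -2.31 to -1.80 and -0.40 to 0.27 for ZDHHC15.

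The DEG counts moved by over 1.5 times with the filter. Without a filter on low counts, and with at least 10 counts in every library, they were 532 and 86 in MUTYH-/ (main 212), 692 and 123 in OGG1-/ (299), 705 and 134 in DKO (317), 552 and 111 in DKO against OGG1-/ (258), 719 and 218 in the interaction (358), 601 and 71 in the joint comparison (281), and 510 and 195 after H2O2 (298). The interaction gave 567 with the library set as a block. After H2O2 the DESeq2 Wald test gave 154. Leaving out each library gave 117 to 702 in MUTYH-/, 165 to 806 in OGG1-/, 260 to 673 in DKO, 194 to 375 in DKO against OGG1-/, 216 to 795 in the interaction, 252 to 490 in the joint comparison and 217 to 497 after H2O2. In MUTYH-/, OGG1-/, DKO, the interaction and the joint comparison the highest was without WT clone 11.

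With the WT clone as a replicate block, which pairs treated with untreated libraries, the H2O2 comparison gave 473 DEGs, and log2 fold changes of -0.10 ± 0.25 for FRMD4A, -0.33 ± 0.17 for CPE and 0.21 ± 0.22 for ZDHHC15 and changed no call of the 3 genes. The replicate numbers of the other groups pair no libraries.

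Genes low in all 4 libraries without OGG1 numbered 91 without a filter, 3 with at least 10 counts in every library, 190 without a fold threshold and 27 without the treated libraries, and 30 to 73 with a library left out. Those high in all 4 numbered 117, 13 and 179 under the first 3 of these, and 91 to 144. Genes with both OGG1-/ libraries low numbered 181, 24 and 452, and 84 to 647, and those with both high 324, 20 and 450, and 99 to 490. Fewer genes tested, a looser condition and fewer libraries are part of how these alternatives are built, and no other cause was tested. At 2 clones per group, and 23 to 28 counts for the lowest values, differences between the low libraries were not resolved.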
